A study of Mus musculus with 12 samples.

Results

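The enzymes that turn glucose into lactate were followed through 10 genes, *Hk1*, *Hk2*, *Gpi1*, *Aldoa*, *Tpi1*, *Gapdh*, *Pgk1*, *Pgam1*, *Pkm* and *Ldha*. They were chosen by name for their place in glycolysis, and each was found in 1 row of a table of 47643 genes by its Ensembl identifier. The data are bulk RNA counts from brain cells of 5 male p16-3MR mice on a C57BL/6 background, aged 113, 115, 116, 116 and 116 weeks for mice 1 to 5. Each mouse gave 1 RFPneg and 1 RFPpos sample, sorted by fluorescence among viable cells after myelin removal and paired here by mouse number (n = 5 per group). All 10 samples carry the same transgene, in which the p16 promoter drives a fusion of red fluorescent protein, luciferase and a viral thymidine kinase, and no treatment is given in the labels. The methods describe the gates as low and high fluorescence, so that RFPneg cells need not lack the reporter, and neither gate used a marker of cell type. The reporter reads the activity of a p16 promoter in a transgene, and these bulk samples hold no young mice and no mice without it.

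Glycolysis splits glucose into pyruvate in the cytosol and yields ATP without oxygen. Hexokinase traps glucose as glucose 6-phosphate, the phosphofructokinase step commits the sugar to the pathway, aldolase and triosephosphate isomerase produce glyceraldehyde 3-phosphate, and the enzymes that follow make ATP, pyruvate and finally lactate. In the brain, microglia, astrocytes, endothelial cells and neurons all run the pathway but use different transporters and isoenzymes, and activated microglia are known to raise glycolysis. A change in RNA is not a change in flux, and neither protein nor metabolites are part of these counts.

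The libraries were 3′ libraries, which place a tag at the end of a transcript, so that the counts were not divided by gene length. Levels are given as counts per 1000000 counts on all genes of a sample (CPM). Library sizes ran from 177287 to 415834 counts for RFPneg (median 248471) and from 222560 to 289713 counts for RFPpos (median 242798). At this depth 1 count was worth between 2.40 and 5.64 CPM, and the limit that a count of 0 allows, 3 counts, lay between 7.21 and 16.9 CPM. A gene was tested if at least 5 samples reached the CPM of 10 counts in the median library, 40.7 CPM. Of the 10 glycolysis genes, 4 passed this filter (*Hk2*, *Aldoa*, *Pkm* and *Ldha*), and 6 (*Hk1*, *Gpi1*, *Tpi1*, *Gapdh*, *Pgk1* and *Pgam1*) did not. For those 6, a second fit took in every gene with at least 1 count, 18571 in all.

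The samples differed widely in markers of cell types. The 20 microglia markers, led by *Ctss*, summed to 23363, 15558, 16694, 15253 and 21673 CPM in RFPneg samples 1 to 5 and to 44873, 39121.5, 41022, 39556 and 34366 CPM in RFPpos samples 1 to 5, and all 20 were called higher in RFPpos. The 10 endothelial markers, led by *Flt1*, summed to 1636, 5324, 5634, 7268 and 4328 CPM in the RFPneg samples and to 108, 142, 219.7, 323 and 218 CPM in the RFPpos samples, and the 8 that were tested were all called lower. Markers of other cells were lower as well: 7 of 7 tested oligodendrocyte markers, 5 of 5 tested neutrophil markers, and the only tested red blood cell and lymphocyte markers, *Hbb-bs* and *Igkc*. Beside these calls, 11.6% of all tested genes were called lower and 10.1% higher. In bulk samples, fewer cells of a type and less RNA per cell cannot be told apart. The share of reads that the counting put on no gene was also higher in the RFPpos sample of 5 of 5 mice, at 41.5% ± 4.27 (SD, n = 5) against 34.9% ± 2.24 (SD, n = 5), with no overlap between the groups. RFPpos sample 5 had the highest share, 48.6%, against 38.4% to 42.1% in the other RFPpos samples, the fewest genes with a count (10308) and the lowest microglia sum among the RFPpos samples. *Pkm*, *Ldha* and the summed share of the 10 enzymes were lowest in that sample. Among the RFPpos samples *Hk2* was lowest there as well, while *Gpi1* (32.9 CPM) and *Gapdh* (49.4 CPM) were highest. Leaving out mouse 5 moved the log2 fold change of *Ldha* from −0.83 to −0.51, that of *Pkm* from −0.37 to −0.12, and the log2 ratio of the summed share from 0.23 to 0.33.

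RFPpos was compared with RFPneg within mice, with edgeR's quasi-likelihood test and TMM scaling, to ask which enzymes differ between cells of high and low reporter signal. *Hk2* was the only 1 of the 4 tested enzymes called at an adjusted p under 0.05, and it was higher in RFPpos. Over all 4210 tested genes, 916 were called (21.8%), with 427 higher (10.1%) and 489 lower (11.6%). No enzyme was called lower by this test, 1 (*Ldha*) had an unadjusted p under 0.05, and edgeR's likelihood ratio test called 1, DESeq2 0 and limma-voom 0. The median log2 fold change was −0.28 over the 4 tested enzymes and −0.03 over all tested genes. In the second fit, *Hk2* was again the only member of the 10 called, against 6.97% of all genes with at least 1 count (2.48% higher and 4.49% lower), and 8 of the 10 had a log2 fold change under 0, with a median of −0.70 beside −0.25 over all 18571 genes. Those values depend on the scale: when library sizes were taken from the 20 microglia markers, the median over all tested genes moved by −1.11, from −0.03 to −1.14, 11 genes were called higher and 3077 lower (73.1%), and 3 of the 4 enzymes (*Aldoa*, *Pkm* and *Ldha*) were called lower. In the second fit with that scaling, *Hk2* was not called (adjusted p = 0.230 in edgeR's test), and 6 of the 10 enzymes, these 3 with *Hk1*, *Gpi1* and *Tpi1*, were called lower, beside 5398 of all 18571 genes and a median of −1.30. With the reads on no gene counted in the library size the median moved by −0.15, to −0.18, the calls split into 283 higher and 581 lower, and the second fit called 0 enzymes higher and 1 lower, beside 264 higher and 1093 lower of all 18571 genes and a median of −0.46. Of the other alternatives, a minimum of 20 counts gave 347 and 324, and an absolute log2 fold change above 1 left 242 and 385.

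Hexokinase, the first enzyme, is present as *Hk1*, the broadly expressed form, and *Hk2*, an inducible form. *Hk2* (ENSMUSG00000000628; GRCm38 chromosome 6, 82725025 to 82774454, minus strand) had 417, 331, 354, 435 and 360.4 CPM in RFPneg samples 1 to 5, from 74, 65, 147, 108 and 108 counts. In RFPpos samples 1 to 5 it had 598, 818, 803, 607 and 445 CPM, from 133, 237, 179, 152 and 108 counts. The RFPpos sample was higher in 5 of 5 mice and the groups did not overlap, although RFPpos sample 5 lay only just above RFPneg sample 4. Groups without overlap were found for 16.0% of all tested genes, and *Hk2* was the only one of the 10 enzymes among them.

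The mean level of *Hk2* was 379 ± 44.2 CPM (SD, n = 5) in RFPneg and 654 ± 157 CPM (SD, n = 5) in RFPpos, a fitted log2 difference of 0.75 (SE 0.19, 95% interval 0.35 to 1.16, adjusted p = 0.00819 in edgeR's quasi-likelihood test), which turned to −0.36 (adjusted p = 0.0989) relative to the microglia markers, where the median of all tested genes was −1.14. Per 1000 counts on the 20 microglia markers there were 17.9, 21.3, 21.2, 28.5 and 16.6 *Hk2* counts in the RFPneg samples and 13.3, 20.9, 19.6, 15.3 and 12.9 in the RFPpos samples. This ratio was lower in the RFPpos sample in 5 of 5 mice, with groups that overlapped. The call was lost without mouse 2 (log2 fold change 0.63, adjusted p = 0.0611), without mouse 3 (0.67, adjusted p = 0.0595) and with the reads on no gene counted in the library size (0.60, adjusted p = 0.0561), and with 1 setting changed at a time the adjusted p from edgeR, DESeq2 or limma lay between 0.000736 and 0.0989. All ranges over alternatives given here change 1 setting at a time and leave out the second fit with another scaling, test or mouse set for the genes that passed the count filter. The part of the microglia markers and of the reads on no gene in the *Hk2* result was not tested.

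*Hk1* (ENSMUSG00000037012; chromosome 10, 62268855 to 62379908, minus strand) had few counts, 4, 9, 15, 8 and 7 in RFPneg samples 1 to 5 and 1, 6, 6, 11 and 2 in RFPpos samples 1 to 5. These counts correspond to 32.0 ± 9.66 CPM (SD, n = 5) and 20.9 ± 15.8 CPM (SD, n = 5), with overlapping groups and a higher RFPpos value in mouse 4 alone. The fitted log2 difference was −0.67 (SE 0.56, adjusted p = 0.799 in edgeR's quasi-likelihood test, fit to all genes with at least 1 count), and −1.88 relative to the microglia markers (adjusted p = 0.00451, the lowest of all alternatives, the highest being 0.903), where the median of all genes in that fit was −1.30. *Hk3*, the hexokinase of blood and myeloid cells, had 27 counts in all 10 samples together, and *Hkdc1* had none. *Hk2* held most of the counts on the hexokinase genes, 91.4%, 85.5%, 90.2%, 93.1% and 88.5% in the RFPneg samples and 99.3%, 94.8%, 94.2%, 92.1% and 98.2% in the RFPpos samples. The exact (Clopper-Pearson) 95% interval was 75.6% to 92.5% for the lowest of these shares, RFPneg sample 2, and 95.9% to 99.98% for the highest, RFPpos sample 1. The RFPpos share was higher in 4 of 5 mice, mouse 4 being the exception, and the groups overlapped.

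The promoters of the enzyme called higher and of *Ldha*, the enzyme with the next smallest p-value, were read as well. RefSeq promoter entries on GRCm38.p6 were found for 10 of 10 genes, with 15 entries in all. The 250 bases before the start were searched on both strands for ACGTG, a form of the core of the element that hypoxia-inducible factors bind. Other forms of that core, such as GCGTG, were not searched for. The palindrome CACGTG, a motif of other helix-loop-helix factors, contains the motif on both strands, so that such a stretch matches on each. Of all 32851 such windows 16.6% hold the motif, and of the 15 windows of the enzymes 7 do, which belong to 6 of the 10 genes. The 2 matching windows of *Aldoa* overlap and hold the same stretch, so that this match is counted 2 times. For *Hk2* (chr6:82774455-82774704, minus strand) and for the first of 2 entries of *Ldha* (chr7:46845554-46845803, plus strand) the windows read as follows, 5′ to 3′, with the matches in capitals.
*Hk2*: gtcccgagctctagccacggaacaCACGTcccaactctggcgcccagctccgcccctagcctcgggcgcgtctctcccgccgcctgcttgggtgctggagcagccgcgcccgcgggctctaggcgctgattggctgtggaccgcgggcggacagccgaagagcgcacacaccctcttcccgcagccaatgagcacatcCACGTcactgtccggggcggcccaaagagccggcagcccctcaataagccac
*Ldha*: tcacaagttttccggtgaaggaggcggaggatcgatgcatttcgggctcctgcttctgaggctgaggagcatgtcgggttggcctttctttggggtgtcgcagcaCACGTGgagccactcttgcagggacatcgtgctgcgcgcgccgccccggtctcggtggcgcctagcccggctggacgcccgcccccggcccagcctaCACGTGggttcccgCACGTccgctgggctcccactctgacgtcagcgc
There were 2 stretches with a match in the *Hk2* window and 3 in the *Ldha* window, where 2 of the 3 are the palindrome. The second *Ldha* entry (chr7:46846832-46847081) held no match. A match describes letters only, and binding was not measured in these data.

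*Gpi1*, glucose-6-phosphate isomerase, turns glucose 6-phosphate into fructose 6-phosphate (ENSMUSG00000036427; chromosome 7, 34201330 to 34230336, minus strand). It had 10, 20, 18, 10 and 7 counts in the RFPneg samples and 4, 7, 7, 7 and 8 counts in the RFPpos samples. RFPneg sample 2, at 102 CPM, was the highest of the 10, and the RFPpos samples lay between 17.97 and 32.9 CPM, so that the groups overlapped at RFPneg sample 5 (23.4 CPM). The means were 53.1 ± 29.8 CPM (SD, n = 5) and 26.9 ± 6.02 CPM (SD, n = 5), lower in RFPpos in 4 of 5 mice, with a fitted log2 difference of −0.79 (SE 0.47, adjusted p = 0.511 in edgeR's quasi-likelihood test). It was −1.98 relative to the microglia markers (adjusted p = 0.000236 from edgeR) and −0.43 without mouse 2, and the adjusted p over all alternatives lay between 0.000236 and 0.903. The next step, phosphofructokinase, is not among the 10 genes, and its 3 genes were under the count filter. The platelet-type gene *Pfkp* had 6, 12, 12, 9 and 9 counts in the RFPneg samples and 1, 5, 5, 4 and 0 in the RFPpos samples, groups that did not overlap in CPM. Its log2 fold change was −1.64 (SE 0.60, adjusted p = 0.0800 in edgeR's quasi-likelihood test), which missed the threshold. It passed with edgeR's likelihood ratio test (adjusted p = 0.0485), limma-voom (0.0476), the reads on no gene in the library size (0.0325) and the scaling to the microglia markers (1.83e-05), and the adjusted p reached 0.275 without mouse 2. *Pfkl* and *Pfkm*, the liver and muscle types, had 35 and 65 counts in all, with 0 to 10 and 1 to 13 counts per sample and overlapping groups.

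Aldolase cleaves fructose 1,6-bisphosphate. *Aldoa*, its widespread form (ENSMUSG00000030695; chromosome 7, 126795234 to 126800751, minus strand), had 73.3, 133, 137, 96.6 and 93.4 CPM in RFPneg samples 1 to 5. In RFPpos samples 1 to 5 it had 94.4, 93.2, 71.7, 124 and 86.5 CPM. The groups overlapped throughout, and RFPpos was higher in 2 and lower in 3 of 5 mice. The fitted log2 difference was −0.19 (SE 0.28, 95% interval −0.78 to 0.39, adjusted p = 0.690 in edgeR's quasi-likelihood test), and it was 0.03 without mouse 3 (adjusted p = 0.971) and −1.31 relative to the microglia markers (adjusted p = 0.00143).

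The aldolase of astrocytes and neurons, *Aldoc*, had many more counts than *Aldoa* in these 3′ libraries. Its level was 688, 1137, 1051, 700.3 and 647 CPM in the RFPneg samples and 175, 642, 1385, 1198 and 1054 CPM in the RFPpos samples. RFPpos sample 1 was the lowest of all 10 and RFPpos sample 3 the highest, so that the RFPpos samples spanned the range of the RFPneg samples on both sides. The fitted log2 difference was −0.12 (SE 0.29, adjusted p = 0.833 in edgeR's quasi-likelihood test), but 0.27 without mouse 1, 0.08 without mouse 2 and 0.04 without the mouse block. Relative to the microglia markers it was −1.25 and called lower (adjusted p = 0.00313 from edgeR, the highest of the alternatives being 0.971). The 9 astrocyte markers, of which *Slc1a2* was the most abundant, summed to 2973, 4120.3, 3682, 2902 and 3547 CPM in the RFPneg samples and to 737, 2095, 3900.4, 4056 and 3299 CPM in the RFPpos samples, again lowest in RFPpos sample 1. Of the 8 astrocyte markers tested, 3 were called lower and 0 higher, beside 11.6% lower and 10.1% higher over all tested genes. None of the 9 was at 0 in all RFPpos samples. Their part in the *Aldoc* values was not tested. *Aldoa* held 9.63% to 12.6% of the aldolase counts in the RFPneg samples, and 35.0% (exact 95% interval 23.1% to 48.4%) in RFPpos sample 1 against 4.92% to 12.7% in the other RFPpos samples.

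Triosephosphate isomerase, *Tpi1* (ENSMUSG00000023456; chromosome 6, 124810586 to 124814296, minus strand), interconverts the triose phosphates. It had 7, 10, 12, 4 and 16 counts in the RFPneg samples and 1, 9, 5, 12 and 2 in the RFPpos samples, the RFPpos value in CPM being higher in mouse 4 alone. The means were 37.8 ± 15.6 CPM (SD, n = 5) and 22.8 ± 17.6 CPM (SD, n = 5), and the fitted log2 difference was −0.72 (SE 0.53, adjusted p = 0.718 in edgeR's quasi-likelihood test), with overlapping groups. The value was −1.91 relative to the microglia markers (adjusted p = 0.00230 from edgeR, the lowest of all alternatives, the highest being 0.902), −0.30 without mouse 5 and −1.32 without mouse 4. *Hk1* and *Tpi1* shared a pattern in which RFPpos samples 1 and 5 were the lowest of the 10 and RFPpos sample 4 the highest RFPpos sample.

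*Gapdh*, glyceraldehyde-3-phosphate dehydrogenase, makes the first NADH of the pathway and is a common reference gene (ENSMUSG00000057666; chromosome 6, 125161715 to 125166467, minus strand). It had only 4, 6, 13, 2 and 7 counts in the RFPneg samples and 7, 12, 11, 7 and 12 in the RFPpos samples, so that a gene usually among the most abundant stood at 23.2 ± 9.35 CPM (SD, n = 5) and 39.9 ± 9.95 CPM (SD, n = 5). The 300 bases at the 3′ ends of its transcripts match 130 other annotated genes at 95% identity or more over at least 100 bases, 125 of them pseudogenes, and the 124 of these genes in the table held 95 counts in all samples together, against 81 on *Gapdh*. The table lists 0 reads aligned to more than 1 place, so that what became of reads shared with such copies is unknown and the *Gapdh* level is uncertain. By the same measure *Gpi1* matches 1 other annotated gene, *Aldoa*, *Tpi1* and *Pkm* match 2 each and *Ldha* matches 6. The same limit holds for the levels of these 5 genes. The RFPpos sample was higher in 5 of 5 mice, with overlapping groups. The fitted log2 difference was 0.88 (SE 0.51, 95% interval −0.11 to 1.88, adjusted p = 0.475 in edgeR's quasi-likelihood test) and turned to −0.28 relative to the microglia markers. With the 5 samples of each group pooled, the ratio of RFPpos to RFPneg per library size was 1.67, with an exact 95% interval of 1.05 to 2.69 that covers counting error only. For comparison, the reference gene *Actb*, beta-actin, had between 2874 and 3644 CPM in the RFPneg samples and between 3143 and 4628 CPM in the RFPpos samples.

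*Pgk1* and *Pgam1*, phosphoglycerate kinase, which makes the first ATP of the pathway, and phosphoglycerate mutase, were close to the limit of detection. *Pgk1* (ENSMUSG00000062070; chromosome X, 106187100 to 106203699, plus strand) had 7 counts in all, 1, 0, 3, 1 and 0 in the RFPneg samples and 0, 1, 0, 1 and 0 in the RFPpos samples. *Pgam1* (ENSMUSG00000011752; chromosome 19, 41911923 to 41918660, plus strand) had 17 counts, 1, 1, 4, 1 and 4 in the RFPneg samples and 0, 1, 0, 3 and 2 in the RFPpos samples. A difference between the groups was not detectable at this depth. The ratio of RFPpos to RFPneg in pooled samples had exact 95% intervals of 0.0415 to 2.66 for *Pgk1* and 0.180 to 1.75 for *Pgam1*. For neither gene did another annotated gene match the 3′ ends by the measure used for *Gapdh*. With pseudogene rows named after a member added to that gene, however, the log2 fold change of *Pgk1* moved from −0.87 (SE 2.16) to −0.54 (SE 2.07). Of the other mutase genes, *Bpgm*, which also makes 2,3-bisphosphoglycerate in red cells, had 12, 7, 24, 6 and 14 counts in the RFPneg samples and 1, 8, 3, 10 and 1 in the RFPpos samples (log2 fold change −1.34, SE 0.53, adjusted p = 0.119 in edgeR's quasi-likelihood test), and *Pgam2* of muscle had none. *Bpgm* passed relative to the microglia markers (log2 fold change −2.55, adjusted p = 1.69e-05 from edgeR), with the reads on no gene in the library size (−1.56, adjusted p = 0.0453) and without mouse 4 (−1.98, adjusted p = 0.0312), and its highest adjusted p was 0.541, without mouse 1. Beside it, the 5 red blood cell markers, led by *Hbb-bs*, summed to 1156, 918, 1462, 1936 and 394 CPM in the RFPneg samples and to 117, 13.8, 0, 59.9 and 90.6 CPM in the RFPpos samples, with *Alas2* at 0 in all RFPpos samples, and their part in the *Bpgm* values was not tested.

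Enolase, which follows the mutase, is also outside the 10 genes. *Eno1*, its widespread form, had 4, 8, 23, 13 and 13 counts in the RFPneg samples and 3, 6, 2, 8 and 5 in the RFPpos samples, lower in 5 of 5 mice when given in CPM but with overlapping groups (log2 fold change −1.11, SE 0.52, adjusted p = 0.265 in edgeR's quasi-likelihood test). It passed only relative to the microglia markers (−2.28, adjusted p = 0.000103 from edgeR), and its highest adjusted p was 0.850, without mouse 3. *Eno2* of neurons had 17 counts in the RFPneg samples together and 3 in the RFPpos samples, and *Eno3* of muscle 9 and 6.

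Pyruvate kinase makes the second ATP. *Pkm* (ENSMUSG00000032294; chromosome 9, 59656368 to 59679375, plus strand), whose splice forms these counts do not tell apart, had 79.0, 122, 74.5, 121 and 137 CPM in RFPneg samples 1 to 5. In RFPpos samples 1 to 5 it had 67.4, 104, 121, 75.9 and 49.4 CPM. RFPpos was lower in 4 of 5 mice, mouse 3 being the exception, and the groups overlapped. The means were 107 ± 28.1 CPM (SD, n = 5) and 83.5 ± 28.7 CPM (SD, n = 5), a fitted log2 difference of −0.37 (SE 0.30, 95% interval −0.997 to 0.27, adjusted p = 0.445 in edgeR's quasi-likelihood test). Leaving out mouse 5 gave −0.12 and leaving out mouse 3 gave −0.63, while scaling to the microglia markers gave −1.49 (adjusted p = 0.000540 from edgeR, the lowest with 1 setting changed, the highest being 0.879). *Pklr*, the pyruvate kinase of liver and red cells, had no counts.

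Lactate dehydrogenase closes the anaerobic branch by turning pyruvate into lactate. *Ldha* (ENSMUSG00000063229; chromosome 7, 46841475 to 46855627, plus strand) had 90.2, 163, 93.8, 137 and 123 CPM in RFPneg samples 1 to 5, from 16, 32, 39, 34 and 37 counts. In RFPpos samples 1 to 5 it had 53.9, 107, 76.2, 108 and 16.5 CPM, from 12, 31, 17, 27 and 4 counts. It was lower in the RFPpos sample in 5 of 5 mice, but the groups overlapped, and RFPpos sample 5 was by far the lowest. The means were 122 ± 30.5 CPM (SD, n = 5) and 72.3 ± 38.5 CPM (SD, n = 5), a fitted log2 difference of −0.83 (SE 0.31, 95% interval −1.49 to −0.17), and the adjusted p of 0.0673 in edgeR's quasi-likelihood test missed the threshold. It passed in 3 alternatives with 1 setting changed, the likelihood ratio test of edgeR (adjusted p = 0.0321), a minimum of 20 counts (adjusted p = 0.0498) and the scaling to the microglia markers (log2 fold change −1.98, adjusted p = 5.76e-05), and without mouse 5 the log2 fold change was −0.51 (adjusted p = 0.221 from edgeR), the highest adjusted p with 1 setting changed. The 3′ ends of its transcripts match 6 annotated pseudogenes by the measure used for *Gapdh*, of which 3 are in the table with 0 counts.

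The other subunit gene, *Ldhb*, which predominates in heart and neurons, had 95.9, 45.9, 64.9, 48.3 and 76.7 CPM in the RFPneg samples and 71.9, 72.5, 161, 67.9 and 86.5 CPM in the RFPpos samples. RFPpos sample 3 was the highest of the 10, and the groups overlapped. The fitted log2 difference was 0.47 (SE 0.30, adjusted p = 0.310 in edgeR's quasi-likelihood test), which turned to −0.63 relative to the microglia markers. *Ldha* held a smaller share of the counts on both genes in the RFPpos sample in 5 of 5 mice, a ratio that does not depend on the scaling and that was looked at after the values had been seen. The share was 48.5%, 78.0%, 59.1%, 73.9% and 61.7% in RFPneg samples 1 to 5 and 42.9%, 59.6%, 32.1%, 61.4% and 16.0% in RFPpos samples 1 to 5, with overlapping groups. With 25 to 66 counts behind each share, the exact 95% intervals were wide, 62.4% to 89.4% for RFPneg sample 2 and 4.54% to 36.1% for RFPpos sample 5.

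**Figure D1:**
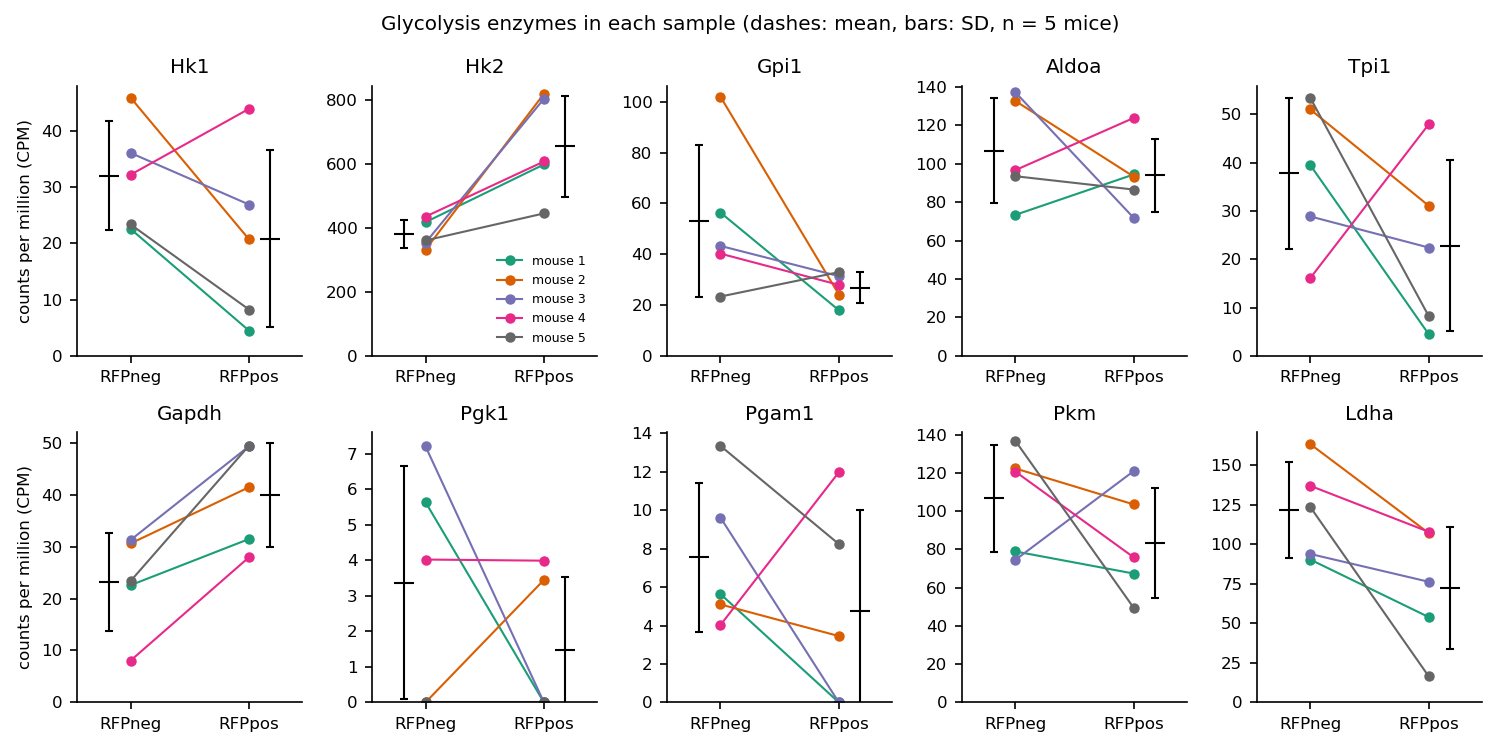
Level of each of the 10 glycolysis enzymes in CPM (vertical axis, from 0) in RFPneg and RFPpos samples, with 1 line per mouse and the mean ± SD of the 5 samples beside each group. *Hk2* rose in every mouse, from 331 to 435 CPM in RFPneg to 445 to 818 CPM in RFPpos (its fold change turns to −0.36 on the log2 scale relative to microglia markers), while the other 9 genes overlap between the groups and *Pgk1* and *Pgam1* stay at 13.3 CPM or less.

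**Figure D2:**
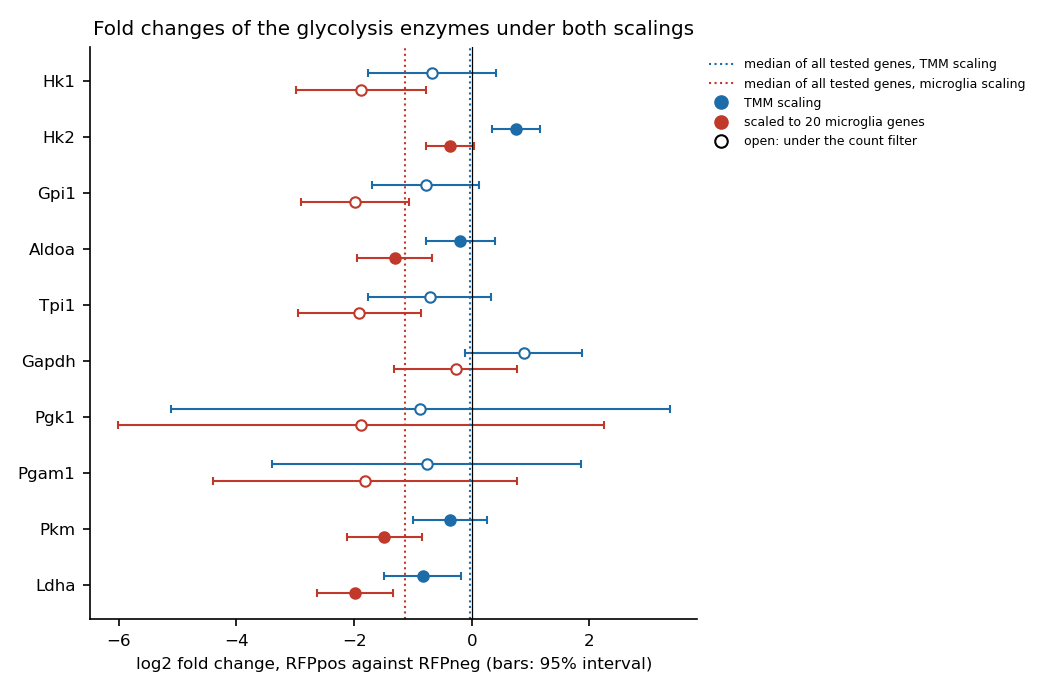
Log2 fold changes (horizontal axis) of the 10 enzymes with 95% intervals, with TMM scaling in blue and with library sizes from 20 microglia markers in red. Filled points come from the fit to the 4210 tested genes, open points from the fit to all genes with at least 1 count, and the dotted lines mark the medians over the tested genes, −0.03 and −1.14. With TMM scaling the interval of *Hk2* lies above 0 and that of *Ldha* below it, and with microglia scaling *Hk2* is at −0.36 and the intervals of 6 genes (*Hk1*, *Gpi1*, *Aldoa*, *Tpi1*, *Pkm* and *Ldha*) lie below 0.

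The 10 enzymes together took a small share of the counts. The summed share was 0.0812%, 0.0984%, 0.0815%, 0.0893% and 0.0851% in RFPneg samples 1 to 5 and 0.0872%, 0.125%, 0.120%, 0.108% and 0.0704% in RFPpos samples 1 to 5. The RFPpos share was higher in 4 of 5 mice, and RFPpos sample 5 was the lowest of the 10. Exact 95% intervals ran from 0.0603% to 0.0818% for that sample and from 0.112% to 0.138% for the highest, RFPpos sample 2. The mean shares were 0.0871% ± 0.00712 (SD, n = 5) and 0.102% ± 0.0229 (SD, n = 5), a log2 ratio of 0.23, smaller than the SD of the log2 ratios over the mice, 0.31. The sign of this ratio rests on *Hk2*. Without it, a setting chosen after seeing the data, the log2 ratio was −0.42, and the RFPpos share of the other 9 was lower in 4 of 5 mice. With the reads on no gene in the total the log2 ratio of all 10 was 0.09, and relative to the microglia markers it was −0.93.

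Within the sum, *Hk2* made up 51.4%, 33.7%, 43.4%, 48.6% and 42.4% of the counts on the 10 enzymes in RFPneg samples 1 to 5. It made up 68.6%, 65.7%, 66.8%, 56.3% and 63.2% in RFPpos samples 1 to 5. The groups did not overlap, with means of 43.9% ± 6.82 (SD, n = 5) and 64.1% ± 4.78 (SD, n = 5), and since both parts of this share come from the same sample it does not move with the scaling. In the mean over the samples of a group, *Hk2* was the most abundant of the 10 in both groups. It was followed in RFPneg by *Ldha* at 122, *Aldoa* at 107 and *Pkm* at 107 CPM. These means did not differ from each other beyond their SDs of 27.3 to 30.5 CPM. In RFPpos, *Aldoa* followed at 93.9 ± 19.0, *Pkm* at 83.5 ± 28.7 and *Ldha* at 72.3 ± 38.5 CPM (SD, n = 5). *Gpi1*, *Tpi1*, *Hk1* and *Gapdh* lay between 20.9 and 53.1 CPM in the mean of either group.

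**Figure D3:**
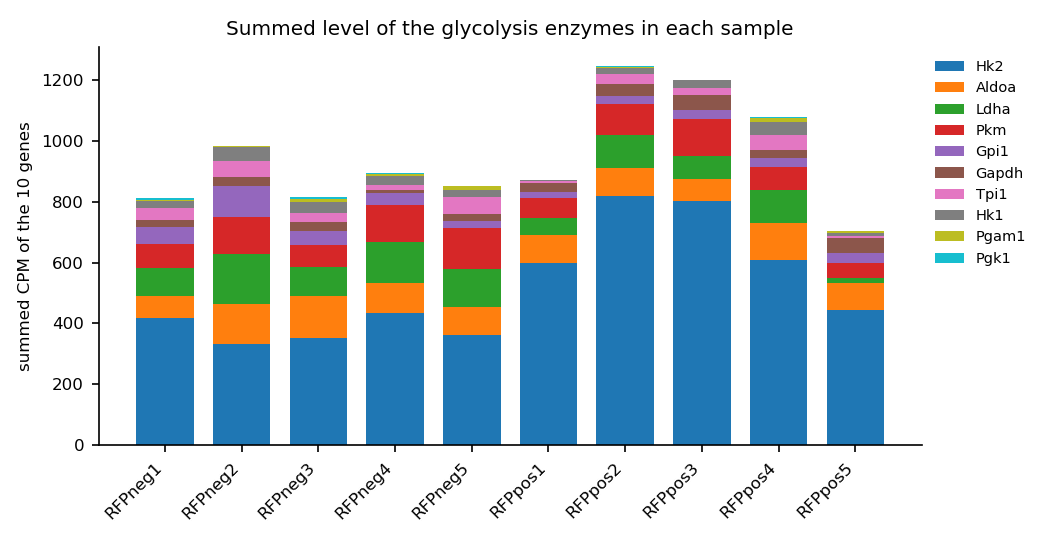
Summed CPM (vertical axis, from 0) of the 10 enzymes in each of the 10 samples, with 1 colour per gene. *Hk2* takes the largest part of every bar, 33.7% to 51.4% in RFPneg and 56.3% to 68.6% in RFPpos, and RFPpos sample 5 has the lowest bar at 704 CPM.

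Around the pathway, a wider list of 43 genes held glucose and fructose transporters, the enzymes and isoenzymes left out above, their regulators, pyruvate and lactate transport, the pyruvate dehydrogenase complex and the pentose phosphate pathway. Of these, 4 had no counts (*Hkdc1*, *Pfkfb1*, *Pgam2* and *Pklr*), 25 others were under the filter and 14 were tested. Of the 14, 2 were called lower, 1 was called higher and 11 were not called, beside 11.6% lower and 10.1% higher over all tested genes. The 11 had log2 fold changes from −0.96 to 0.72 and adjusted p-values in edgeR's quasi-likelihood test from 0.0683 to 0.963. The median over the 14 was −0.18, beside −0.03 over all tested genes.

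*Slc2a1*, the glucose transporter GLUT1 of the blood-brain barrier and of glia, had 214, 683, 755, 902 and 541 CPM in RFPneg samples 1 to 5 and 8.99, 55.2, 49.3, 75.9 and 53.5 CPM in RFPpos samples 1 to 5. It fell in every mouse, with no overlap, by a fitted log2 difference of −3.70 (SE 0.23, adjusted p = 1.91e-09 in edgeR's quasi-likelihood test), and −4.83 relative to the microglia markers. *Slc16a1*, the lactate transporter MCT1 of endothelial and oligodendroglial cells, had 67.7, 153, 178, 201 and 113 CPM in the RFPneg samples and 0, 20.7, 22.4, 63.9 and 20.6 CPM in the RFPpos samples. It fell in every mouse as well, without overlap, with a fitted log2 difference of −2.60 (SE 0.37, adjusted p = 3.84e-05 in edgeR's quasi-likelihood test). RFPneg sample 1 was the lowest RFPneg sample for both genes, as it was for the endothelial marker sum, and RFPpos sample 1 was the lowest RFPpos sample for all 3. The 9 oligodendrocyte markers, led by *Mbp*, did not share that order: they summed to 3458, 1938, 1275, 1167 and 1575 CPM in the RFPneg samples and to 364, 166, 300.4, 179.7 and 198 CPM in the RFPpos samples, with *Opalin* at 0 in all RFPpos samples. None of the 10 endothelial markers was at 0 in all RFPpos samples. The sum of the 5 fibroblast markers was also lowest in sample 1 of each group, at 90.2 CPM in RFPneg and 0 CPM in RFPpos. The part of any of these cell types in the fall of *Slc2a1* and *Slc16a1* was not tested.

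*Slc2a5*, a fructose transporter known as a microglial gene in brain, had 192, 122, 86.6, 92.6 and 187 CPM in RFPneg samples 1 to 5 and 395, 324, 359, 371 and 264 CPM in RFPpos samples 1 to 5. It rose in every mouse without overlap, by a fitted log2 difference of 1.38 (SE 0.23, adjusted p = 0.000190 in edgeR's quasi-likelihood test). Relative to the microglia markers the value was 0.27 (adjusted p = 0.269 from edgeR) and no longer passed, and over the alternatives with 1 setting changed the adjusted p lay between 9.88e-08 and 0.269. RFPneg samples 1 and 5 were the highest RFPneg samples for *Slc2a5* and for the microglia marker sum, and RFPpos sample 1 the highest and RFPpos sample 5 the lowest RFPpos sample for both. *Hk2* was also lowest in RFPpos sample 5 among the RFPpos samples, but highest in RFPpos samples 2 and 3. The part of the microglia markers in the *Slc2a5* result was not tested beyond this scaling.

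**Figure D4:**
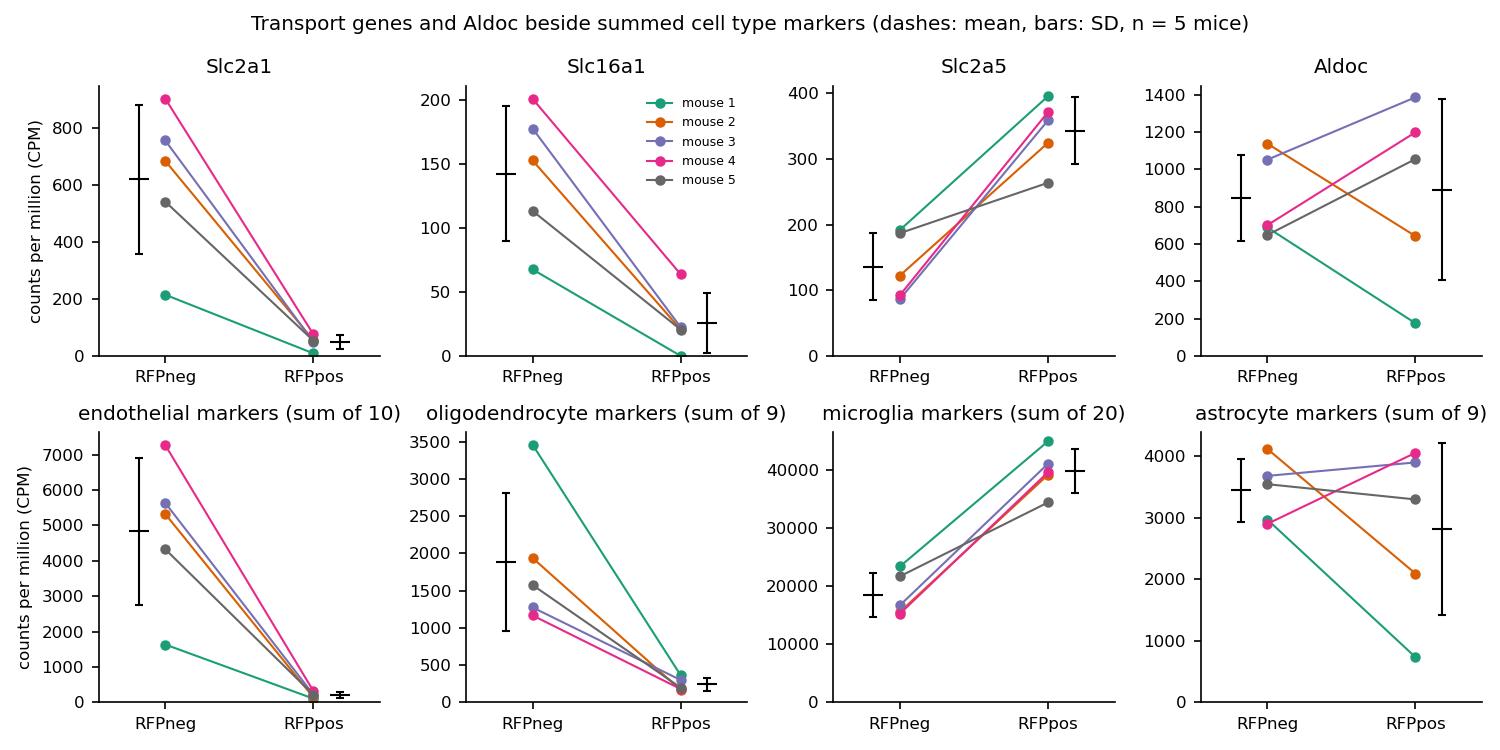
Level in CPM (vertical axes, from 0) of *Slc2a1*, *Slc16a1*, *Slc2a5* and *Aldoc* in the upper row and summed CPM of 10 endothelial, 9 oligodendrocyte, 20 microglia and 9 astrocyte markers in the lower row, with 1 line per mouse and the mean ± SD of the 5 samples beside each group. *Slc2a1* and *Slc16a1* fell and *Slc2a5* rose in every mouse, and *Aldoc* and the astrocyte sum are lowest in RFPpos sample 1, at 175 and 737 CPM.

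Several of the enzymes are known targets of hypoxia-inducible factors, so that 14 other genes of that response were read in the same way. Of the 8 tested, 3 were called lower, *Ndrg1* (log2 fold change −4.20), *Ddit4* (−1.97) and *Vegfa* (−1.93), each lower in 5 of 5 mice, with adjusted p-values in edgeR's quasi-likelihood test of 2.29e-06, 0.00176 and 0.00118, while 11.6% of all tested genes were called lower and 10.1% higher. The second fit, where 4.49% of all genes were called lower, called 5 of the 14 lower, these 3 with *Ankrd37* (−3.31, adjusted p = 0.00543 from edgeR) and *Adm*, which had 0 counts in all RFPpos samples (−5.61, adjusted p = 0.00125). *Ndrg1* is also abundant in oligodendrocytes, whose markers fell as did those of other cells, and their part in its values was not tested. The level of *Ndrg1* was 218 ± 55.9 CPM (SD, n = 5) in RFPneg and 11.2 ± 12.8 CPM (SD, n = 5) in RFPpos. RFPpos sample 5 was at 32.9 CPM and the other RFPpos samples between 0 and 10.4 CPM. Without mouse 5 the log2 fold change of *Ndrg1* was −5.26. The collagen hydroxylase gene *P4ha1* had 98.8 ± 37.9 CPM (SD, n = 5) in RFPneg and 169 ± 35.4 CPM (SD, n = 5) in RFPpos. It was higher in RFPpos in 4 of 5 mice and was called higher (log2 fold change 0.78, adjusted p = 0.0429 in edgeR's quasi-likelihood test). That call was lost in several alternatives, among them without mouse 1 (log2 fold change 0.66), mouse 3 (0.85), mouse 4 (0.59) or mouse 5 (0.83), and the value turned to −0.33 relative to the microglia markers, with adjusted p-values between 0.0214 and 0.310 over the alternatives with 1 setting changed. The median log2 fold change of the 8 tested genes was −0.39, beside −0.03 over all tested genes.

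Among 14 genes often used as references for expression, 12 were tested. The transferrin receptor gene *Tfrc* was called lower (log2 fold change −3.03, adjusted p = 5.10e-06 in edgeR's quasi-likelihood test), with 156 ± 83.9 CPM (SD, n = 5) in RFPneg and 20.3 ± 19.0 CPM (SD, n = 5) in RFPpos. The lysosomal enzyme gene *Gusb* was called higher (1.09, adjusted p = 0.00528 in the same edgeR test), with 66.2 ± 9.26 CPM (SD, n = 5) in RFPneg and 143 ± 28.6 CPM (SD, n = 5) in RFPpos, and stood at −0.02 relative to the microglia markers. The other 10 were not called, while 11.6% of all tested genes were called lower and 10.1% higher. The median of the 12 was −0.05, beside −0.03 over all tested genes.

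The genes whose pattern over the 10 samples was most like that of *Hk2* were sought among the other 4209 tested genes, by the root mean square difference in log2 CPM after each gene was centred on its own mean. The closest were *Rnaset2a*, a lysosomal ribonuclease with a near-identical paralogue that makes its counts uncertain (0.15), the lipid phosphatase gene *Lpin1* (0.17), the Toll-like receptor gene *Tlr2* (0.18), *Washc4* of the WASH complex on endosomes (0.19) and *Sparc*, a secreted matrix protein (0.19), against a median of 0.63. Their log2 fold changes were 0.78, 0.61, 0.67, 0.84 and 0.83. *Rnaset2a*, *Washc4* and *Sparc* were called, with adjusted p-values in edgeR's quasi-likelihood test of 0.00571, 0.0230 and 0.00102. Of all tested genes, 10.1% were called higher. The call of *Washc4* was lost with DESeq2 (adjusted p = 0.101), with the reads on no gene in the library size (0.0758), without mouse 2 (0.0958) and without mouse 3 (0.111), with adjusted p-values between 0.00793 and 0.356 over the alternatives, and *Tlr2* passed without mouse 5 alone (adjusted p = 0.0461 from edgeR, the highest being 0.293). Relative to the microglia markers the values turned to −0.34, −0.50, −0.45, −0.27 and −0.29, beside −0.36 for *Hk2*, and none of them was called. The 10 samples share the grouping into RFPneg and RFPpos, so that any gene that differs by a like amount comes close by this measure. The fold changes of these genes under both scalings thus follow from how they were chosen and add nothing on *Hk2*.

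The remaining marker lists were read in the same way. The markers of oligodendrocyte progenitors, led by *Vcan*, had none of 4 tested, with *Pdgfra* and *Cspg4* at 0 in all RFPpos samples. Of neuron markers, led by *Meg3*, 1 of 3 tested was called lower, and of mural markers, led by *Vtn*, 2 of 2. Of fibroblast markers, led by *Dcn*, 1 of 2 was called lower, of monocyte markers, led by *H2-Aa*, 2 of 2, and of choroid plexus and ependyma markers, led by *Ttr*, 1 of 1. Of all tested genes, 11.6% were called lower. In the second fit, where 4.49% of all genes were called lower, 2 of 4 progenitor, 4 of 9 neuron and 6 of 8 mural markers were. So were 1 of 5 fibroblast, 5 of 5 monocyte and 1 of 7 choroid plexus and ependyma markers. The neutrophil markers, led by *S100a8*, summed to 3799 ± 2028 CPM (SD, n = 5) in RFPneg and 69.2 ± 81.3 CPM (SD, n = 5) in RFPpos, with *Ly6g* at 0 in all RFPpos samples. At 0 in all RFPpos samples were also the mural markers *Kcnj8*, *Abcc9*, *Myh11* and *Tagln*, the fibroblast markers *Col3a1* and *Lum*, the lymphocyte markers *Cd3g*, *Cd3e*, *Cd3d* and *Cd79a*, the monocyte markers *Ly6c2* and *Chil3*, and *Ak7*, *Tmem212* and *Ccdc153* of ependyma. The only tested marker of CNS-associated macrophages was not called, and their 6 markers, led by *Mrc1*, summed to 183 ± 20.02 CPM (SD, n = 5) and 186 ± 72.8 CPM (SD, n = 5). That sum was lower in the RFPpos sample in 4 of 5 mice, with RFPpos sample 2 the highest of the 10 at 311 CPM. The part of these cells in the values of the 10 enzymes was not tested.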

How the data were processed

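Brain cells sorted by RFP fluorescence were measured in 10 bulk samples from 5 mice. Libraries were QuantSeq 3′ FWD, and the authors counted reads with a Lexogen pipeline for UMIs. They deposited raw counts for each gene. The genome build and annotation of the bulk counts are not given in the sources used here, and the single-cell samples were not analysed here. Symbols for 47224 of the 47643 Ensembl identifiers and all gene coordinates came from GENCODE M21 on GRCm38. Rows for reads on no gene (32.1% to 48.6% of reads per sample) and ambiguous reads (0.295% to 0.436%) stayed out of library sizes, which lay between 177287 and 415834.

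Counts were fitted with edgeR 4.0.16 in R 4.3.3 (glmQLFit and glmQLFTest, TMM scaling, minimum count 10, mouse as a block), and p-values were adjusted by Benjamini-Hochberg over all genes tested. The steps were tested on simulated data. CPM values were computed from the deposited counts and library sizes without TMM factors. The pairing comes from the methods, which take both populations from the same mice. Correlations between the 2 samples of a mouse, taken on deviations from their group means, were 0.22, −0.04, 0.14, −0.01 and 0.02. A count of 0 was taken to allow 3 counts, and intervals at 95% and floors cover counting error only.

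Alternatives were DESeq2 1.42.0 size factors and Wald test, library size alone, library size from 20 microglia markers or with reads on no gene, all genes with at least 1 count, a minimum count of 20, the likelihood ratio test, limma-voom (limma 3.58.1), no replicate block, thinned counts, an absolute log2 fold change above 1, pseudogene rows added to their parent genes, and each mouse left out. The pseudogene rows added were only those named after a member, so that copies of *Gapdh* under other names were not added. The members and lists were chosen with earlier results of these data known. The genes named are the 10 enzymes, isoenzymes and missing steps, other called genes of the pathway list, called genes of the hypoxia and reference lists, the most abundant marker of each cell type and those at 0 counts, and the 5 genes most like *Hk2*. Copies were sought with BLAST against GENCODE M21 transcripts, which do not show unannotated copies.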

Additional observations from a re-analysis of the deposited data

Results flagged for a closer look

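In 88 groups of 5 samples, made of the genes with a fold change above, the summed share and the marker sums, 3 values stood far from the other 4 of their group, and chance gives about 1 in 20 groups. *Ldhb* was at 161 CPM in RFPpos sample 3 and between 67.9 and 86.5 CPM in the other RFPpos samples. *Pfkp* was at 61.2 CPM in RFPneg sample 2 and between 28.9 and 36.2 CPM in the other RFPneg samples. The markers of choroid plexus and ependyma summed to 1621 CPM in RFPpos sample 4 and to between 173 and 437 CPM in the other RFPpos samples.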

How the results depend on the processing

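The 916 calls over all tested genes lay between 662 and 923 with each mouse left out and within 1.5 times in every other alternative except scaling to the microglia markers (3088). Without the mouse as a block, 917 genes were called, *Hk2* was called and no other enzyme was, and no call of an enzyme changed. The count of 1 enzyme called higher was 0 with microglia scaling, with the reads on no gene in the library size and with an absolute log2 fold change above 1 asked for, and 0 to 1 with a mouse left out. The count of 0 enzymes called lower was 3 with microglia scaling, 1 with a minimum count of 20 and 1 with the likelihood ratio test, and 0 with any mouse left out. In the fit to all genes with at least 1 count it was 6 with microglia scaling and 1 with the reads on no gene. In the wider pathway, microglia scaling gave 0 genes higher and 10 lower of those tested (73.1% of all tested genes were lower), and a minimum count of 20 gave 1 lower, with fewer genes tested. With a mouse left out, 1 to 2 were higher and 2 to 3 lower.

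The log2 fold change of *Hk2* was 0.60 with the reads on no gene, 0.63 to 0.85 with a mouse left out and −0.36 with microglia scaling, and its value of 0.75 is under the fold change of 1. Under microglia scaling, *Gapdh* (−0.28), *Ldhb* (−0.63), *P4ha1* (−0.33), *Gusb* (−0.0241), *Rnaset2a* (−0.34), *Lpin1* (−0.50), *Tlr2* (−0.45), *Washc4* (−0.27) and *Sparc* (−0.29) also changed sign. The value of *Aldoc* was −1.25 with microglia scaling (called lower), 0.0446 without the block and −0.35 to 0.27 with a mouse left out, and that of *Aldoa* −0.32 to 0.0278. With a mouse left out, *Hk1* lay between −1.05 and −0.51, *Gpi1* between −1.09 and −0.43, *Tpi1* between −1.32 and −0.30, *Pkm* between −0.63 and −0.12, *Ldha* between −0.96 and −0.51 and *Ldhb* between 0.23 and 0.68. The log2 ratio of the summed share was −0.93 relative to the microglia markers, 0.0851 with the reads on no gene in the total, −0.42 without *Hk2* (added after seeing the data), and 0.14 to 0.33 with a mouse left out. The causes were not tested. The 6 enzymes under the filter have at most 20 counts per sample, which limits what their values can show.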
